A study of Mus musculus with 5 samples.

Results

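Complement components were examined as 9 genes of the cascade, C1qa, C1qb, C1qc, C1ra, C2, C3, C4b, Cfb and Serping1, in mouse glioma and in normal mouse brain. The members were found through the RefSeq accession printed for each probe, which gave 12 probes among 55658 kept and placed all 9 genes among the 16887 tested of 21145 named. No measured value entered that choice of members, although the list was drawn up with earlier results of these data known. The gliomas came from a mouse model built on MADM (mosaic analysis with double markers), a genetic method that makes scattered mutant cells visible by colour through exchange between chromosomes at division. The samples were 3 gliomas (brain tumour tissue) and 2 normal brains, all taken at postnatal day 150, and the total RNA of each was measured on 1 single-colour Agilent array. No mutated gene, strain, sex, brain region or treatment is named in the labels used here, which also do not say whether each replicate was a different animal. The p-values thus cover the spread between these samples only, and that spread may be technical. All tissue was bulk, so fewer cells of a type and less RNA per cell cannot be told apart.

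Complement is a cascade of plasma and tissue proteins that marks targets for removal. In the classical pathway the recognition molecule C1q, assembled from the products of C1qa, C1qb and C1qc, binds its target and activates the proteases C1r and C1s, which cleave C4 and C2 to form an enzyme that cleaves C3. C3 fragments coat the target and are read by receptors on phagocytes, factor B (Cfb) builds the amplifying enzyme of the alternative pathway, and the C1 inhibitor (Serping1) shuts down C1r and C1s. In mouse brain C1q is made chiefly by microglia, C4b and C3 are also made by reactive astrocytes, and complement tags synapses for removal by microglia.

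The C1q genes form a cluster of 18719 bases on chromosome 4 (GRCm38.p6, chr4:136880126-136898844) and lie in the order C1qb, C1qc, C1qa. Of the 9 members, 4 had an entry in RefSeq's promoter set of build GRCm38.p6, each with 250 bases before and 50 after the annotated start. These were C1qb, C1qc, C1ra and C3. The windows of C1qb and C1qc are shown because these neighbours gave close profiles over the arrays, and that of C3 as one whose profile differed. The C1ra profile differed from those of C1qb and C1qc by more, 0.845 and 0.858 log2 units (root mean square). For C3 these distances were 0.695 and 0.767. The C1ra window is described below but not printed. All 3 printed windows lie on the minus strand, at chr4:136886151-136886450 for C1qb, chr4:136892865-136893164 for C1qc and chr17:57228087-57228386 for C3. Capitals mark GAGGAA on either strand, the core bound by PU.1, a transcription factor of myeloid cells.
C1qb: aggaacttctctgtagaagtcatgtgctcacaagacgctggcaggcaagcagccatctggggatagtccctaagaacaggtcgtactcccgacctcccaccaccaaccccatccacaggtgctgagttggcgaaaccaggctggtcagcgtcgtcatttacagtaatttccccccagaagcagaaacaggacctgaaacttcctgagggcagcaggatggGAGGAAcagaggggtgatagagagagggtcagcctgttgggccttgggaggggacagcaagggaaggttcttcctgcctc
C1qc: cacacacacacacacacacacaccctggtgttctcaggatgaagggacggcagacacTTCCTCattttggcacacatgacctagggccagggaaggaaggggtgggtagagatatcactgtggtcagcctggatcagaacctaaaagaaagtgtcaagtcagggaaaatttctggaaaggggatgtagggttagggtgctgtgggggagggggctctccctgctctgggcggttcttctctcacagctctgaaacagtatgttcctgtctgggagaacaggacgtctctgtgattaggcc
C3: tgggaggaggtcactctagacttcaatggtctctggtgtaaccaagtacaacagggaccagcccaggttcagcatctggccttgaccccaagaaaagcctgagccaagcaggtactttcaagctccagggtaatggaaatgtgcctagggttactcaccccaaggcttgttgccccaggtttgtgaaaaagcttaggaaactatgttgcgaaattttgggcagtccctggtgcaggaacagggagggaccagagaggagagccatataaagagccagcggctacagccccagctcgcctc
GAGGAA stood once in the C1qb window, starting 30 bases before the annotated start, and once on the opposite strand of the C1qc window, starting 193 bases before it. The C3 window held no match. The C1ra window held 1 match, on the opposite strand and starting at base 45 after the start, and 28.3% of all 32851 promoter windows of this length hold at least 1. The interferon-stimulated response element core GAAANNGAA, present in 8.6% of all windows, matched in none of the 4. The gamma-activated site TTCNNNGAA, present in 8.3%, matched once, in the C1ra window. The motifs were searched on both strands, and no match of one overlapped a match of another in these windows.

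On arrays the signal over background takes the place of depth, and precision is limited by how few arrays there were. Between 61.45% and 70.3% of the 59305 spots per array were well above background, no spot other than controls was saturated, and all 12 member probes were well above background on all 5 arrays. Levels are given as relative log2 signal, the log2 of the processed signal minus the log2 of that array's 75th percentile. Changes are glioma minus normal brain, each with its standard error from limma (n = 3 and n = 2). All arrays shared 1 slide and 1 scan. The gliomas occupied slide row 1 and normal brain row 2, and this position and the group cannot be told apart. Glioma 3 also differed in sex-linked RNA from the other arrays: the brighter Xist probe read 1.23 there and -7.87 and -8.22 in gliomas 1 and 2, with -7.41 and -7.31 in the normal brain samples. The labels held against tissue markers: all 8 oligodendrocyte progenitor genes examined were higher in glioma and all 8 neuronal genes lower.

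Of the 9 members, 5 rose in glioma and none fell. C1qa, C1qb, C1qc, C4b and Cfb passed the test as higher (limma, Benjamini-Hochberg adjusted p under 0.05 over all genes), where 23.7% of all genes tested were called higher and 27.8% lower. At an unadjusted p under 0.05, C3 passed as well, and no member was lower at that level. The largest change was that of Cfb, 17.1-fold, and the called changes of the others lay between 3.33-fold and 5.93-fold. In 7 members all gliomas lay above both normal brain samples, which held for 35.2% of all genes, and in none did all gliomas lie below both, which held for 38.8%. The calls rested on both normal brain samples: without normal brain 1 only C1qa and Cfb passed, and without normal brain 2 only Cfb. The median change of the 9 members was 1.90 on the log2 scale, against -0.05 over all genes tested.

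**Figure D1:**
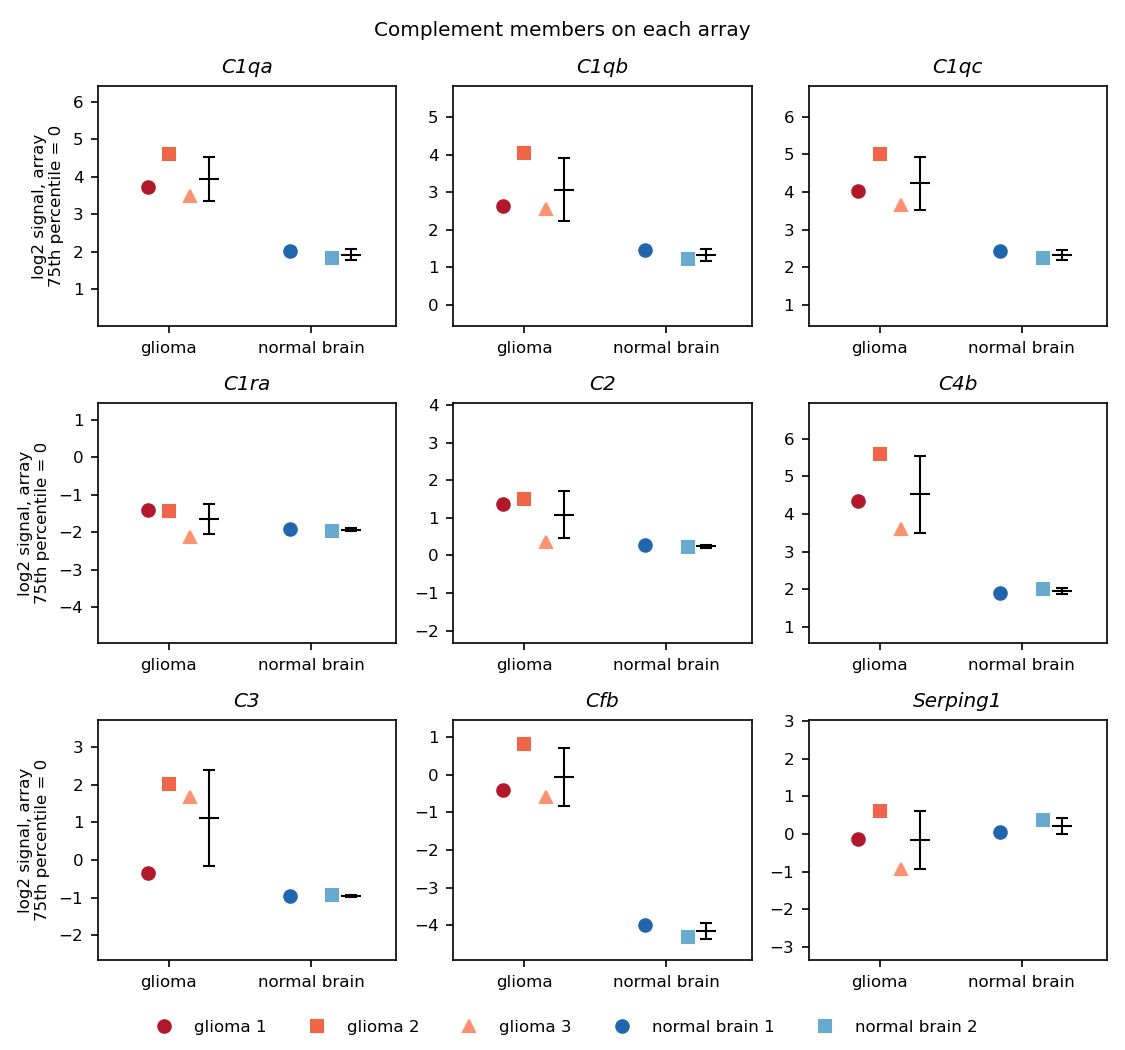
Relative log2 signal (array 75th percentile at 0) of the 9 members, 1 panel a gene, with 3 glioma arrays on the left and 2 normal brain arrays on the right of each panel; every panel spans the same number of log2 units, and black bars are mean ± SD. The gliomas lie above both normal brain samples in all panels but C1ra and Serping1, and in C3 glioma 1 lies far below gliomas 2 and 3.

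All 3 C1q genes rose. C1qa, which encodes the A chain of C1q, stood at a relative log2 signal of 3.73, 4.60 and 3.49 in gliomas 1 to 3, against 2.02 and 1.82 in normal brain samples 1 and 2. All gliomas were higher, with a gap of 1.46 between the lowest glioma and the highest normal brain sample. The change was 2.02 ± 0.36 (4.05-fold, adjusted p = 0.00805 by limma). C1qb, the B chain gene, read 2.63, 4.03 and 2.54 in gliomas 1 to 3 and 1.45 and 1.22 in normal brain samples 1 and 2. Glioma 2 stood well above the other tumours, and the groups did not overlap. C1qb rose by 1.74 ± 0.50 (3.33-fold, adjusted p = 0.0363 by limma), and without glioma 1, with 1 array fewer, the change was 1.95 and did not pass (adjusted p = 0.0514 by limma). C1qc, the C chain gene, read 4.02, 5.01 and 3.66 in gliomas 1 to 3 and 2.42 and 2.24 in normal brain samples 1 and 2. It rose by 1.90 ± 0.42 (3.74-fold, adjusted p = 0.0161 by limma), again highest in glioma 2 and lowest in glioma 3.

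The profiles of the C1q genes were close to each other. Centred on its own mean over the 5 arrays, the C1qc profile differed from that of C1qa by 0.09 log2 units (root mean square) and from that of C1qb by 0.16, and C1qa and C1qb differed by 0.22. C1qc was the third nearest of all genes tested to C1qa, after Cd48 (0.07) and Rac2 (0.08). Nearest to C1qc were Rac2 (0.05), Cyba (0.08) and Ctsz (0.09), and nearest to C1qb were Havcr2 (0.12), Itgb2 (0.14) and Tgtp1 (0.14). These distances are over 5 arrays only and include the change between the groups.

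The C1q rises were accompanied by other genes of phagocytes. Of 10 genes shared by microglia and macrophages, 6 rose and none fell, where 23.7% of all genes tested were called higher and 27.8% lower. Their median change was 1.52. Their summed linear signal was 92.9 to 223 in gliomas against 55.1 to 55.4 in normal brain, in units of the array's 75th percentile. Fcer1g, a receptor signalling subunit, rose by 1.96 ± 0.34 and Cd68, a lysosomal protein gene of phagocytes, by 1.86 ± 0.52. Of 11 genes of homeostatic microglia, 1 rose (Sall1, a microglial transcription factor, by 1.55 ± 0.34) and 1 fell (Olfml3, by 1.95 ± 0.32). The 11 genes had a median change of 0.26 and a summed signal of 115 to 153 in gliomas against 102 to 103 in normal brain. That sum rests largely on Siglech, the brightest of them on every array. Siglech read 6.11, 6.30 and 6.72 in gliomas 1 to 3 and 6.15 and 6.08 in normal brain samples 1 and 2. In glioma 3 the median difference of the 11 genes from the normal brain mean was -0.58. Among 7 genes of monocyte-derived macrophages tested, 3 rose and 1 fell, with a median of 1.51 and summed signals of 3.06 to 6.61 in gliomas against 1.90 to 2.07 in normal brain. The part of these cells in the C1q result was not tested.

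Of the genes of the C4 and C2 step, C4b rose and C2 did not pass. C4b, the gene of the C4 component, read 4.36, 5.61 and 3.60 in gliomas 1 to 3, against 1.90 and 2.01 in normal brain samples 1 and 2. Glioma 2 was the highest and glioma 3 the lowest of the tumours, a 4.04-fold ratio between them, and all were above normal brain by at least 1.59. C4b rose by 2.57 ± 0.59 (5.93-fold, adjusted p = 0.0185 by limma). C4a, a close copy of C4b that lies 65189 bases away on chromosome 17, was not matched to a probe, and signal from its RNA on the C4b probe cannot be told apart. C2, whose product joins C4b in the enzyme that cleaves C3, read 1.38, 1.50 and 0.37 in gliomas 1 to 3 and 0.27 and 0.21 in normal brain samples 1 and 2. Gliomas 1 and 2 were clearly higher and glioma 3 only 0.10 above the higher normal brain sample. The change of 0.84 ± 0.38 did not pass (adjusted p = 0.117 by limma, 95% interval -0.12 to 1.80), and without glioma 3 it was 1.20 and passed (adjusted p = 0.00406 by limma).

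Factor B showed the largest rise of the members, while C2, its neighbour on the chromosome, did not pass. Cfb lies at chr17:34856374-34862514 (GRCm38.p6), and 87 bases separate it from C2. Cfb read -0.40, 0.83 and -0.58 in gliomas 1 to 3, against -4.00 and -4.30 in normal brain samples 1 and 2. The groups were separated by 3.42, more than the whole range of 1.41 among the gliomas. It rose by 4.10 ± 0.46 (17.1-fold, adjusted p = 0.00185 by limma), and 98.5% of all genes tested had a smaller signed change. With normexp background correction (offset 50) the Cfb change was 2.74. The nearest profiles to Cfb were those of Tubb6 (root mean square difference 0.17), Ccl3 (0.21) and Fanci (0.22).

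C3, on which the pathways converge, split the tumours. C3 read -0.36, 2.02 and 1.67 in gliomas 1 to 3, against -0.97 and -0.94 in normal brain samples 1 and 2. Gliomas 2 and 3 were high, while glioma 1 lay only 0.58 above the higher normal brain sample. The change of 2.06 ± 0.74 (4.18-fold, 95% interval 0.16 to 3.96) missed the threshold (adjusted p = 0.069 by limma), and without glioma 1 it was 2.80 and passed (adjusted p = 0.00203 by limma). A second C3 probe also placed glioma 1 nearest to normal brain, with -0.36, 1.41 and 0.98 in gliomas 1 to 3 and -0.58 and -0.63 in normal brain samples 1 and 2. The brighter C3 probe was printed 10 times on each array, and the SD over these spots was 0.03 to 0.04 on the glioma arrays and 0.07 to 0.08 on the normal brain arrays. For C1qc, printed 10 times with 9 or 10 spots kept, it was 0.03 to 0.06. Such repeats hold only the error within 1 hybridisation, not that of RNA, labelling or array, and each tumour had 1 array. Between gliomas 1 and 2 the C3 values lay 2.38 apart, with spots that ranged from -0.43 to -0.29 on glioma 1 and from 1.96 to 2.09 on glioma 2.

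**Figure D2:**
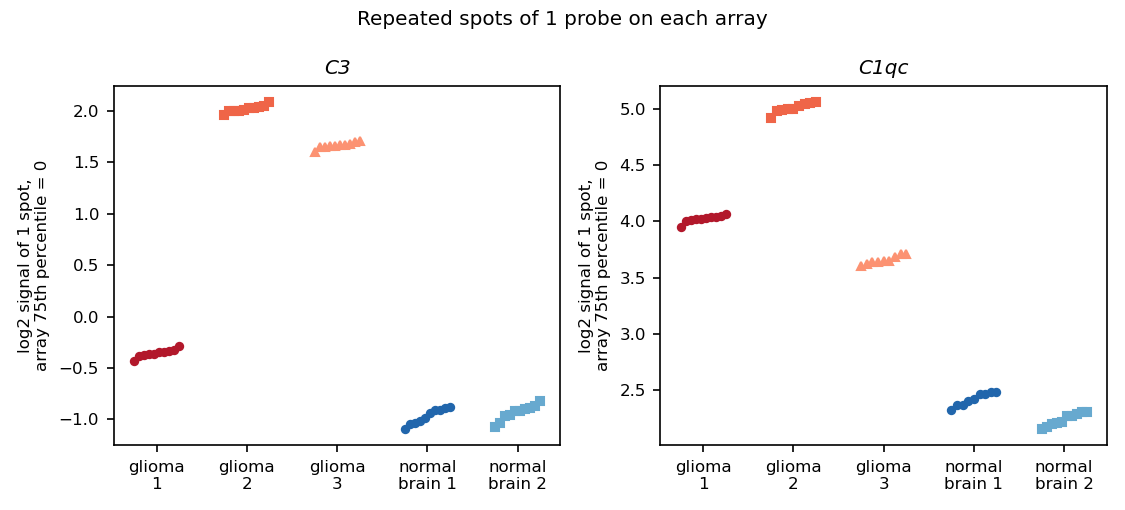
Relative log2 signal of each spot of the C3 probe (left) and the C1qc probe (right) that were printed 10 times per array, sorted within an array, for 3 gliomas and 2 normal brain samples. The spots of an array lie close together, the C3 spots of glioma 1 near -0.36 and those of glioma 2 near 2.02, while for C1qc glioma 1 lies between gliomas 2 and 3.

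The protease C1ra and the inhibitor Serping1 did not pass in either direction. C1ra, which encodes the protease C1r, read -1.40, -1.43 and -2.12 in gliomas 1 to 3 and -1.90 and -1.96 in normal brain samples 1 and 2. Glioma 3 lay below both normal brain samples and the other tumours above them. The change was 0.28 ± 0.26 (adjusted p = 0.408 by limma, 95% interval -0.39 to 0.96), and the other C1ra probe gave 0.01 ± 0.31. Without glioma 3 the change of C1ra was 0.52 and passed (adjusted p = 0.0235 by limma). Serping1, the inhibitor of C1r and C1s, read -0.12, 0.61 and -0.94 in gliomas 1 to 3 and 0.07 and 0.37 in normal brain samples 1 and 2. Its groups overlapped, with glioma 2 highest and glioma 3 lowest of all arrays, and the change was -0.37 ± 0.47 (adjusted p = 0.538 by limma, 95% interval -1.57 to 0.82). The second Serping1 probe gave -0.31 ± 0.53 with the same order of the gliomas. Fitted probe by probe over 38682 probes, of which 21.1% were called higher, 5 of the 12 member probes were called higher and none lower, 1 for each of the 5 genes named above.

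Markers of vessel and connective tissue cells, which also make C1 inhibitor, were lower in the tumours. Over all genes tested, 23.7% were called higher and 27.8% lower. Of 8 endothelial genes 7 fell, with a summed signal of 11.5 to 15.0 in gliomas against 23.5 to 26.3 in normal brain. Mural cells and fibroblasts had 7 of 8 marker genes lower, with sums of 4.99 to 6.07 in gliomas against 20.6 to 21.6 in normal brain. Of 10 astrocyte genes, 1 rose and 4 fell, with sums of 167 to 293 in gliomas against 315 to 329 in normal brain, and Gfap, the filament gene of reactive astrocytes, did not pass (0.34 ± 0.43). The part of these cells in the values of Serping1, C3 and C4b was not tested. The liver is the main source of plasma complement. Of 6 hepatocyte genes 4 were tested. Among these Alb fell, being well above background in no glioma, and none was called higher. Apoa1 and Ahsg were not tested, as neither was well above background on 2 arrays. Whether complement protein from plasma was present was not tested, as the arrays measured RNA.

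The tumours kept a common order in most members. Glioma 2 was the highest tumour in 8 of the 9 members, the exception being C1ra. Glioma 3 was the lowest in 8 of 9, the exception being C3. Over all genes tested, glioma 2 was the highest in 27.6% and glioma 3 the lowest in 38.5%. Glioma 3 also differed in sex-linked RNA, as given above, and this and its rank cannot be told apart. Both ranks, glioma 2 highest and glioma 3 lowest, held in 7 members, compared with 16.3% of all genes tested. The same pair of ranks was found in 7 of the 10 genes shared by microglia and macrophages, in 7 of the 11 homeostatic microglia genes and in 10 of the 17 interferon response genes. Relative to the mean of the normal brain samples, the median difference of the members was 1.30, 2.68 and 1.33 in gliomas 1 to 3. For the shared microglia and macrophage genes it was 1.38, 2.39 and 0.80, and for the homeostatic microglia genes 0.50, 1.00 and -0.58. All 17 interferon response genes tested rose, where 23.7% of all genes were called higher, with a median change of 4.42. Their medians were 4.11, 4.78 and 3.83 in gliomas 1 to 3. Several complement genes, Cfb and C4b among them, are known to be induced by interferons, but the part of this response in the values above was not tested.

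**Figure D3:**
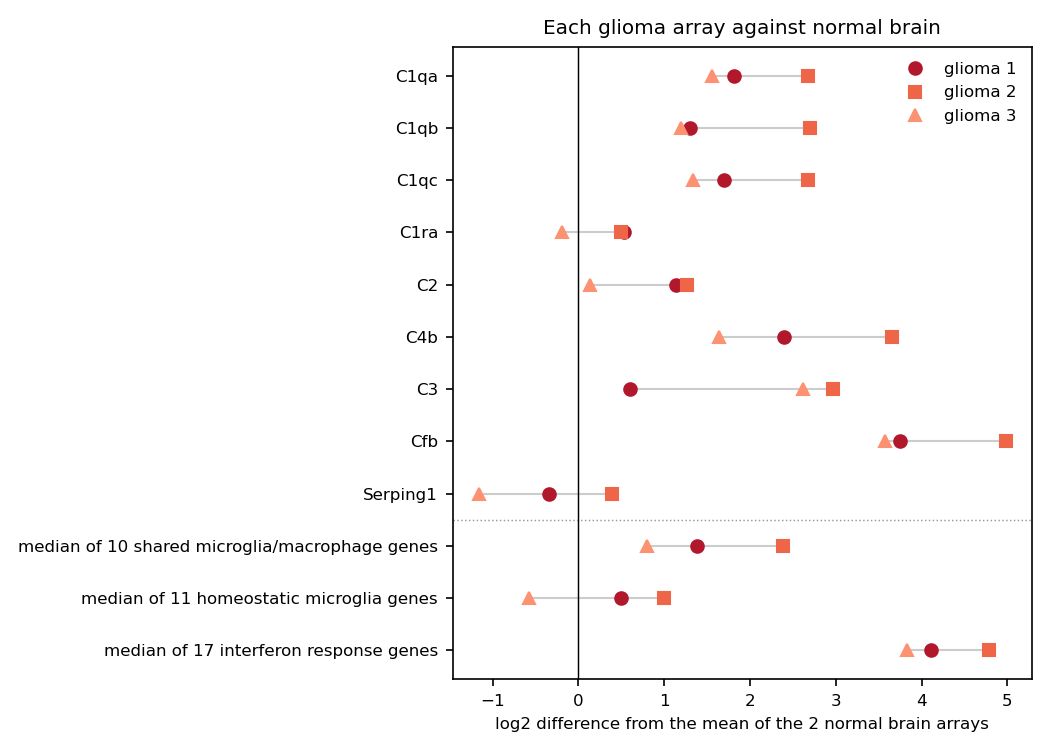
Log2 difference of each of the 3 glioma arrays from the mean of the 2 normal brain arrays, for the 9 members and, below the dotted line, for the medians of 10 genes shared by microglia and macrophages, 11 homeostatic microglia genes and 17 interferon response genes. Glioma 2 lies farthest to the right in every row but C1ra, and glioma 3 farthest to the left in every row but C3.

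Of 50 further complement genes, 49 were matched to a probe and 36 were tested, of which 9 rose and 10 fell. These counts lie near the shares over all genes tested, 23.7% higher and 27.8% lower, and the median change was -0.05, the same as over all genes. The initiating proteases next to C1ra on chromosome 6 had changes under 1 on the log2 scale. C1s1, which encodes the partner protease C1s, read -3.27, -2.98 and -3.53 in gliomas 1 to 3 and -2.48 in both normal brain samples. It fell by 0.78 ± 0.20 (adjusted p = 0.0265 by limma), but did not pass in the authors' unscaled value table (-0.42) or without glioma 1 (-0.78, adjusted p = 0.0585 by limma). C1s2 fell by 0.48 ± 0.15, which did not pass in the unscaled table (-0.12), after quantile normalization, without the filter on dim probes or with any 1 array left out. C1rl rose by 0.59 ± 0.17, which did not pass with normexp (0.22), without glioma 2 or without glioma 3. With either normal brain sample left out, no gene of this list passed. C1s2 and C1rl resemble C1s1 and C1ra in sequence, so shared signal cannot be told apart. C1rb, also near C1ra on chromosome 6, did not pass (0.545 ± 0.177, adjusted p = 0.0512 by limma). Whether C1rb and C1ra share signal was not tested. In all, 1 of 10 genes tested in the initiation and alternative pathway list rose and 2 fell, with a median of 0.11.

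None of the 4 terminal component genes tested, Hc (which encodes C5), C6, C7 and C8g, passed (limma), with changes of -0.10, 0.28, 0.69 and -0.99, and none had an unadjusted p under 0.05. C8a, C8b and C9, which encode other parts of the membrane attack complex, were each well above background on 1 array at most.

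Of 14 regulators tested, many of which shield host cells, 2 rose and 7 fell, where 27.8% of all genes were called lower. These counts include Cfi, not well above background in normal brain, and Cd59b, not well above background in glioma. The median change was -1.19, or -1.145 with Cfi and Cd59b at the bounds given below. Markers of the choroid plexus, the secretory tissue inside the brain ventricles, were lower in the gliomas. All 6 fell, with summed signals of 0.297 to 0.417 in gliomas against 245 to 251 in normal brain. Other tissue markers fell too, among them all 8 neuronal genes and 6 of 8 mature oligodendrocyte genes. The part of these tissues in the regulator values was not tested. Cd59a, whose product blocks the membrane attack complex, read -1.37, -1.16 and -0.63 in gliomas 1 to 3 and 1.97 and 0.99 in normal brain samples 1 and 2. All gliomas were lower, and Cd59a fell by 2.53 ± 0.38 (adjusted p = 0.00429 by limma). Its copy Cd59b was not well above background on any glioma array and was at least 2.16-fold lower there on the processed signal. The fitted change of Cd59b was -2.00, or -0.64 with normexp, the second a smaller change than that bound. Such a bound sets each array without detection at the lowest signal of a spot well above background on that array, or at the probe's own signal where higher. Vtn, which encodes vitronectin, an inhibitor of the terminal complex, fell by 2.20 ± 0.14. Vtn is also made by mural cells, and is itself 1 of the 8 mural cell and fibroblast genes given above. The fall of those markers thus includes that of Vtn. The C3b-cleaving protease gene Cfi read -1.36, -1.22 and -4.00 in gliomas 1 to 3 and was not well above background in normal brain. Cfi was at least 8.27-fold higher in glioma on the processed signal, although its glioma 3 value lay far below the other tumours. The fitted change of Cfi was 4.89 on the log2 scale and 1.72 with normexp, the second a smaller change than that bound. Cr1l, the other regulator called higher, rose by 1.22 ± 0.16 (adjusted p = 0.00297 by limma). Its probe was well above background on all 5 arrays. With no scaling between arrays, 3 regulators were higher and 4 lower, and with either normal brain sample left out 2 were higher and 4 lower.

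Of 8 receptor genes tested, 6 rose and 1 fell, where 23.7% of all genes were called higher. C5ar1, 1 of the 6, was not well above background in normal brain. The median change of the receptor genes was 1.68, or 1.46 with C5ar1 at its bound. With either normal brain sample left out, 2 were higher and none lower. Itgax, a subunit of complement receptor 4, read 1.08, 2.46 and 1.57 in gliomas 1 to 3 and -5.33 and -4.65 in normal brain samples 1 and 2, where its probe was well above background on 1 of the 2 arrays. It rose by 6.69 ± 0.46 (adjusted p = 0.000571 by limma), or by 4.77 with normexp. C3ar1, the receptor of the C3a fragment, rose by 1.79 ± 0.38 (adjusted p = 0.0142 by limma), with -2.75, -1.63 and -2.60 in gliomas 1 to 3 and -3.95 and -4.28 in normal brain samples 1 and 2, and did not pass with either normal brain sample left out. C5ar1, the receptor of C5a, was well above background in every glioma and in neither normal brain sample, at least 1.10-fold higher on the processed signal. Its fitted change of 2.46 rests on normal brain values not well above background, so no p-value is given. With normexp the change was 0.12, smaller than that bound, and did not pass. Itgam, a subunit of complement receptor 3, fell by 1.83 ± 0.56 on its brightest probe. The fall of Itgam did not pass after quantile normalization, in the unscaled table or with the mean of its probes. Nor did it pass without glioma 2 or either normal brain sample. The other Itgam probes differed by 0.45 and -0.08, so its direction is not settled.

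**Figure D4:**
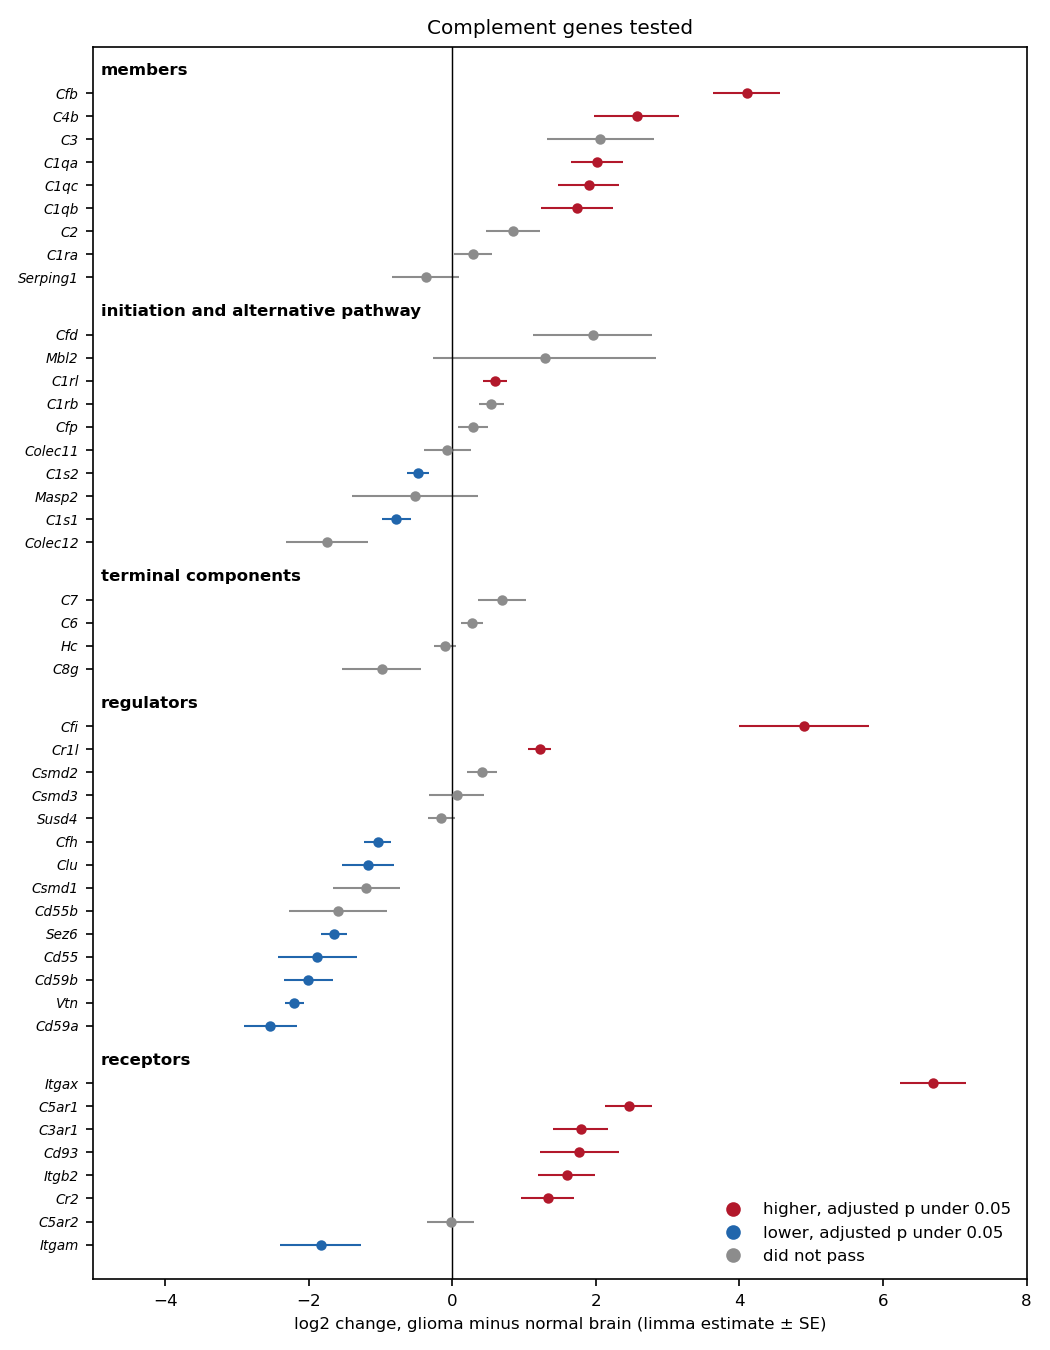
Limma log2 change, glioma minus normal brain, ± SE for the 45 complement genes tested, grouped into the 9 members and the other initiation, terminal, regulator and receptor genes; red is higher and blue lower at an adjusted p under 0.05, and grey did not pass. Cfb, Cfi and Itgax lie farthest to the right and Cd59a farthest to the left, at -2.53. Cfi and C5ar1 were not well above background in normal brain, nor Cd59b in glioma.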

How the data were processed

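Total RNA of 3 gliomas and 2 normal brain samples was labelled with Cy3 and hybridised to Agilent SurePrint G3 mouse arrays. The authors' scanner files hold intensity values and 0 or 1 flags of each spot, extracted by Agilent's Feature Extraction software, version 10.7.3.1 in the submitters' processing notes. The processed signal, per the file headers, is background-subtracted and detrended within an array, and no scaling between arrays was found in it. The deposited values of the series are log2 values whose median difference from the log2 processed signal was at most 0.0001 in size.

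Control spots and outlier spots were left out, spots of a probe were averaged on the log2 scale, 23 probes with no spot left on an array were dropped, and each array's 75th percentile was subtracted. Of 29787 probes with a RefSeq accession, 28013 were named through the GRCm38.p6 gene table. A gene was its brightest probe, tested where 2 or more arrays had it well above background. The main test was limma's (version 3.58.1, R 4.3.3; two-sided, from lmFit and eBayes, adjusted by Benjamini-Hochberg over all genes), with pandas 2.3.3, Python 3.11.15 and matplotlib 3.10.9. The fit was tested on simulated data. Members and lists were chosen with earlier results of these data known. All members were described. Other complement genes were named by the size of their change, up to 4 called per list, and marker genes likewise, up to 2 per list. Gfap, C1rb, Cr1l, Siglech and the terminal component genes were chosen after their values were seen. Alternatives were other background correction, scaling, filter and probe rules, a replicate block and each array left out. The plan for the normexp correction named the mean spot signal. The median spot signal, the one provided, was used in its place.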

Additional observations from a re-analysis of the deposited data

How the results depend on the processing

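The values rest on few arrays, and the normal brain spread on 2. Cfb was called higher under all 12 alternatives, with changes of 2.74 to 4.46. The number of members called higher was 5 with normexp, with quantile normalization, under both filters and with the mean of detected probes. It was 6 in the authors' unscaled table, where C3 changed by 2.42 and passed. Leaving out 1 array at a time gave 1 to 7 members higher. Only Cfb passed without normal brain 2, and only C1qa and Cfb without normal brain 1. The lone normal brain sample is then assumed to vary like the gliomas. Without glioma 3 the count was 7, with C2 and C1ra added. Without glioma 1, C3 passed and C1qb did not (adjusted p = 0.0514 by limma). Over these 5 fits the changes were 1.69 to 2.24 for C1qa, 1.25 to 2.00 for C1qb, 1.51 to 2.19 for C1qc, 2.02 to 3.03 for C4b, 1.61 to 2.80 for C3, 0.63 to 1.20 for C2, 0.16 to 0.52 for C1ra and -0.75 to 0.022 for Serping1, which changed sign without glioma 3 (0.022). C1ra was at -0.004 with normexp. The cause was not tested.

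Other complement genes called numbered 4 to 9 higher and 4 to 10 lower over the same fits, with 6 lower without glioma 2, and 13 higher and 4 lower in the unscaled table. Over all genes, leaving out an array gave 1973 to 4333 higher and 2625 to 4990 lower calls. Without scaling the median change of all genes was 0.31, against -0.05 as reported, and 63.8% of calls were higher, against 46.0%.

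Gliomas and normal brain samples share replicate numbers 1 and 2, but nothing says that these pair them. Same-numbered samples deviated together by r = 0.01 and 0.05 across genes. The 2 normal brain samples deviate from their mean as mirror images, so these values cannot decide on pairing. With the replicate number as a block, C1s1, C1s2 and C1rl did not pass, 6 members were higher, with C2 added at 1.20, Serping1 at 0.022, and 3785 genes were higher and 4476 lower.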
